A study of Mus musculus with 7 samples.

Results

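The H3K9me3 peaks described here lay in the introns of very long mouse genes. A peak was a member if it was on chromosomes 1 to 19, inside a protein-coding gene with a body of at least 300000 bp in GENCODE M1 on mm9, and free of any base of an exon or of a promoter window. A promoter window ran from 2 kb upstream to 0.5 kb downstream of a transcript start. The list of untreated cells held 1335 members among 23190 peaks, 5.76% of that list (95% Wilson interval 5.46 to 6.06), and the list of Setdb1-deleted cells held 267 among 3775, 7.07% (6.30 to 7.94). Together these were 1602 of 26965 peaks. The genes numbered 503, with bodies from 300.5 to 4435 kb and a median of 439 kb, and their eligible intron sequence was 271.9 Mb, 11.4% of the sequenced autosomal bases.

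H3K9me3 was profiled by ChIP-seq on native chromatin in Setdb1 cKO iMEFs, which are immortalized mouse embryonic fibroblasts carrying a conditional allele of the H3K9 methyltransferase gene Setdb1. WT cells received no 4-hydroxytamoxifen (4OHT). KO cells received 4OHT for 4 days and were harvested on day 7. Both came from 1 clonal cKO line and share its background, and each group had 1 H3K9me3 library, so differences between the 2 lists could not be set against replicate spread. The peak lists hold neither read totals nor expression values, so neither the deletion of Setdb1 nor the fibroblast identity was checked here. The intervals given below are 95% intervals that cover counting error only. In bulk chromatin, fewer cells carrying a mark and less of the mark per cell cannot be told apart.

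H3K9me3 marks silent chromatin, and Setdb1 is the methyltransferase that places it on many retrotransposon sequences in euchromatin. Introns of long genes hold most of the sequence of these genes and collect retrotransposon insertions, old and young. Many of the longest mammalian genes encode proteins of synapses, cell adhesion and ion channels, and they are usually silent or weakly expressed in fibroblasts.

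The sequences of the best-scoring members are shown first, because members of the 2 lists were made of different kinds of sequence. The score is the −log10 q of the peak caller, and all peak sequences are the plus strand of mm9. Of the 5 best-scoring WT members without a KO peak at the same place, 4 were high-copy sequence, in Sox6, Hpse2, Lphn3 and Cntnap4, and 1 in Dock2 had a median of 2 copies. Those printed here are the best-scoring one and a pair that shared a stretch. That in Sox6 lay at chr7:122917232-122917446, that in Hpse2 at chr19:43194361-43194568 and that in Cntnap4 at chr8:115173751-115173942. In the Hpse2 and Cntnap4 sequences the capitals mark a stretch of 37 bases that both peaks held on opposite strands, and the Sox6 sequence has no capitals.
Sox6 WT peak: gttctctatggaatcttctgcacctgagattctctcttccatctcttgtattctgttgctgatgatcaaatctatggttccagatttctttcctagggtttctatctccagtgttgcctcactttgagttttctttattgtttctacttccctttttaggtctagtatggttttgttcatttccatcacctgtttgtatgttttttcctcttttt
Hpse2 WT peak: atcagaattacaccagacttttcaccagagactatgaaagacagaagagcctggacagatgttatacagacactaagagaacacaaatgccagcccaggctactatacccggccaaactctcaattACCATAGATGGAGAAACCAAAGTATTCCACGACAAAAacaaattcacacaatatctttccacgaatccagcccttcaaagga
Cntnap4 WT peak: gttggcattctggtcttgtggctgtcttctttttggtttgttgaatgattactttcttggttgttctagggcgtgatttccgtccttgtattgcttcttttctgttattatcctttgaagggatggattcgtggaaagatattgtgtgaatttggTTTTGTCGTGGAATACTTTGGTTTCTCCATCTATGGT

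The 31-mers found in most WT members are shown because they recur from gene to gene. They were picked in turn, each among the members that the earlier ones had left.
31-mer in 82 WT members: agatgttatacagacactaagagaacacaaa
31-mer in 72 WT members: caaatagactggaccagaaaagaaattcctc
31-mer in 40 WT members: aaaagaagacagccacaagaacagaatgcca
The Hpse2 peak above holds the first of them. Together the 3 were found in 165 WT members, 12.4% of all.

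Members of Dock2 and the KO peak overlapping the best of them show a tandem array. The WT peak lay at chr11:34444316-34444424, and its capitals mark the 79 bases shared with the KO peak. The sequence at chr2:22463135-22463342 in Myo3a is the best WT member of high-copy sequence that a KO peak overlapped, and its capitals likewise mark the 71 shared bases.
Dock2 WT peak: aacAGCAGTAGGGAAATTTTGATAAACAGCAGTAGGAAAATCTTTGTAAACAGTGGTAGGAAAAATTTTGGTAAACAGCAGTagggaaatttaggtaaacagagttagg
Myo3a WT peak: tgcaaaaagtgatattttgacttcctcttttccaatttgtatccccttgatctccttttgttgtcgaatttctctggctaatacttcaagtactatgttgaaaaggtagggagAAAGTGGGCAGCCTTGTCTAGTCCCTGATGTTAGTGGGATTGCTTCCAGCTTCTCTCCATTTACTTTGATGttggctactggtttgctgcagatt

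The pair of best-scoring KO members without a WT peak at the same place is shown for its base composition. These lay at chr19:17648800-17648873 in Pcsk5 and chr1:68747285-68747358 in Erbb4. Here and in the last pair of sequences, capitals mark bases of 31-mers that occur once in the assembly.
Pcsk5 KO peak: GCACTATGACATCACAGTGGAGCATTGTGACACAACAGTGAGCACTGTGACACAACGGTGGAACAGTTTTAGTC
Erbb4 KO peak: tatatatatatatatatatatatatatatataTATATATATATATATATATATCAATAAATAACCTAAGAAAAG

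The last pair comes from the gene with most WT members, Kcnq1, at chr7:150405272-150405493, and from the gene with most KO members, Galntl6, at chr8:60556045-60556197. The Kcnq1 peak is the best-scoring member of at most 300 bases in its gene. The Galntl6 peak is the widest of several KO members there that tied for the best score.
Kcnq1 WT peak: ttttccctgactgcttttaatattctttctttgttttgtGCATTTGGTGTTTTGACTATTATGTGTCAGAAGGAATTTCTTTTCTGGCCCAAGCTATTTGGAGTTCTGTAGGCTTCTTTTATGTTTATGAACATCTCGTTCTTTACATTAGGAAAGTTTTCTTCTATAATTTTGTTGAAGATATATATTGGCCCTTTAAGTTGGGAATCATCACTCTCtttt
Galntl6 KO peak: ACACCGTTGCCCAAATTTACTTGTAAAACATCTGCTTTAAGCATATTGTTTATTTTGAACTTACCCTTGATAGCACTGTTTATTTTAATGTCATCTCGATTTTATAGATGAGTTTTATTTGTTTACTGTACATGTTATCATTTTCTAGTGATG

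To compare the numbers of intronic peaks in WT and KO cells, the 2 lists were counted in the same introns. Such counts do not say how many WT peaks were kept, since few members of the 2 lists lay at the same place. KO members were 20% as many as WT members (17.5 to 22.8). This share depended on peak strength, with 13.3% (10.5 to 16.8) at scores at or above the median of the WT list and 34.6% (20.4 to 58.8) at pileups of at least 15 fragments. With all peaks counted, the KO list had 18.3% as many (16.6 to 20.2) in introns of shorter protein-coding genes, with 2562 WT and 469 KO peaks. Outside annotated genes it had 15.4% (14.7 to 16.0). At pileups of at least 15 fragments, shorter introns held 180 WT and 106 KO peaks and sequence outside genes 1128 and 368, beside 52 and 18 members. By these counts the KO share at that cut was lower in members than in shorter introns and close to that outside genes. It rests on 18 KO members, and no interval was computed for the shares beside it. WT members numbered 4.91 per Mb of eligible intron (4.65 to 5.18), close to 4.66 per Mb in shorter genes (4.48 to 4.85) and well under 12.01 per Mb outside genes (11.8 to 12.2). KO members numbered 0.982 per Mb (0.868 to 1.11), beside 0.854 in shorter genes (0.778 to 0.935) and 1.85 outside genes (1.78 to 1.92). The ratio of densities between very long and shorter genes was 1.05 in WT (0.986 to 1.12) and 1.15 in KO (0.990 to 1.34), so both intervals held 1. This ratio depended on which peaks were counted. With pileups of at least 15 fragments only, it was 0.584 in WT (0.429 to 0.794) and 0.343 in KO (0.209 to 0.563). With peaks within 1 kb merged, it was 1.18 in WT (1.1025 to 1.27) and 1.296 in KO (1.11 to 1.51). For KO it was 1.29 (1.08 to 1.53) with genes of at least 500000 bp, and 1.17 (1.01 to 1.36) without Gm20388, whose body is the longest.

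Across classes of gene length, WT density stayed between 4.57 and 5.12 per Mb. KO density was 0.843 per Mb in genes under 100 kb, 0.866 from 100 to 300 kb, 0.830 from 300 to 500 kb and 0.876 from 500 to 1000 kb. In the 48 genes of 1000 kb or more it was 1.39 (1.12 to 1.71), with 92 KO and 338 WT peaks, and the KO count was 27.2% of the WT count (21.6 to 34.3). The interval of this longest class lay above those of the other 4 classes, the highest of which reached 1.09.

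**Figure D1:**
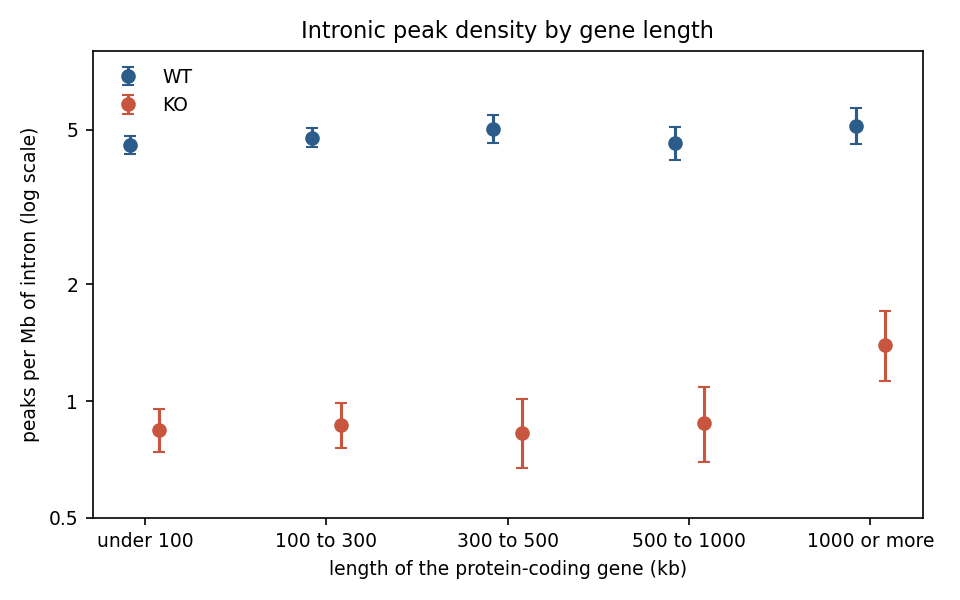
Peaks per Mb of eligible intron on a log scale (y axis) by length of the protein-coding gene in kb (x axis), for the WT list (blue) and the KO list (red), with points for counts over sequence and bars for exact 95% Poisson intervals. WT density lies between 4.57 and 5.12 in all 5 classes, and KO density is 1.39 in genes of 1000 kb or more against 0.830 to 0.876 in the others.

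The genes just inside the length limit were Pam at 300533 bp, with no member, and Nxph1 at 300602 bp, with 0 WT members and 1 KO member. Those just outside were Jazf1 at 299835 bp, with 3 WT peaks and 0 KO peaks, and Pde1c at 299814 bp, with 2 WT peaks and 0 KO peaks.

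Few WT and KO members lay at the same place when all peaks were counted. Of the WT members, 12 shared at least 1 base with a KO peak, which is 0.899% (0.515 to 1.56), where 2.42% of all WT peaks did and 2.26% (1.76 to 2.92) of those in shorter introns. Of the KO members, 12 overlapped a WT peak, 4.49% (2.59 to 7.69), against 16.1% of all KO peaks and 13.6% (10.8 to 17.05) of those in shorter introns. Distance gave the same order. A WT peak lay within 1 kb of 23 KO members, 8.61% (5.81 to 12.6), against 29.8% of all KO peaks and 31.1% (27.1 to 35.5) of those in shorter introns. A WT peak lay within 10 kb of 52 KO members, 19.5% (15.2 to 24.6), where this held for 53.2% of all KO peaks and for 58.6% (54.1 to 63.0) in shorter introns. The median distance from a KO member to the nearest WT peak was 49.4 kb, against 4.84 kb in shorter introns and 7.76 kb over the whole KO list. The nearest WT peak could lie anywhere, also outside genes, where WT peaks were denser. The part of that in these distances was not tested. The overlap differed between kinds of peak. At pileups of at least 15 it was 9.62% of WT members (4.18 to 20.6) and 27.8% of KO members (12.5 to 50.9). No share for shorter introns was computed at that cut. For single-copy WT members it was 1.29% (0.550 to 2.97), against 2.04% (1.31 to 3.16) in shorter introns. For over 1 to 10 copies it was 1.54% (0.272 to 8.21), against 6.05% (4.30 to 8.47). For over 10 to 1000 copies it was 0.806%, against 0.881%. Over 1000 copies it was 0.632% of WT members, against 0.602% in shorter introns, and for a local background over 3 fragments 41.7% (19.3 to 68.05), against 25.7% (18.3 to 34.8).

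The 12 overlapping pairs fell into 2 kinds. In 5 of them the WT peak stood on a local background over 3 fragments, which only 12 of the 1335 WT members had. The local background is the coverage the caller expected at the peak, recovered from pileup and fold. These 5 were the Dock2 peaks with pileups of 54, 38 and 64 in WT and 49, 42 and 69 in KO, a peak in Mdga2, which encodes an adhesion protein of the cell surface, with 135 in WT and 123 in KO, and a peak in 2210408I21Rik with 140 and 130. Their pileups thus differed little between the lists, and the fold over background was no higher than 5.64 among the WT peaks and 4.36 among the KO peaks. The other 7 lay in Car10, BB287469, Fgf14, Myo3a, Magi2, Exoc6b and Galntl6, with WT pileups from 9 to 17 and KO pileups from 9 to 11. In 2 of these 7, BB287469 and Galntl6, the peaks shared only 8 and 13 bases. The Myo3a peak printed above had a pileup of 17 in WT and 9 in KO, and its 31-mers had a median of 8810 copies in the assembly. Reads that fit several places had been put at 1 of them by chance, so the exact site of a peak in high-copy sequence is uncertain.

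The 2 lists differed in the copy number of their sequence. Copy number here is the median number of times the 31-mers of a peak occur in the assembly. Among WT members 389 were single-copy, 29.1% (26.8 to 31.6), and 633 had over 1000 copies, 47.4% (44.7 to 50.1). Among KO members 218 were single-copy, 81.6% (76.6 to 85.8), and 22 had over 1000 copies, 8.24% (5.50 to 12.2). Eligible intron sequence sampled at 1 point per kb was 89.3% single-copy and 4.34% over 1000 copies. KO members thus lay between WT members and the intron sequence itself in their single-copy share, nearer to the latter. Members also differed from peaks in shorter introns, where 25.9% of WT peaks had over 1000 copies and 53.5% of KO peaks (49.0 to 58.0) were single-copy. Sequence of over 1 to 10 copies made 4.87% of WT members and 4.87% of KO members, but 19.98% of WT and 33.7% of KO peaks in shorter introns.

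**Figure D2:**
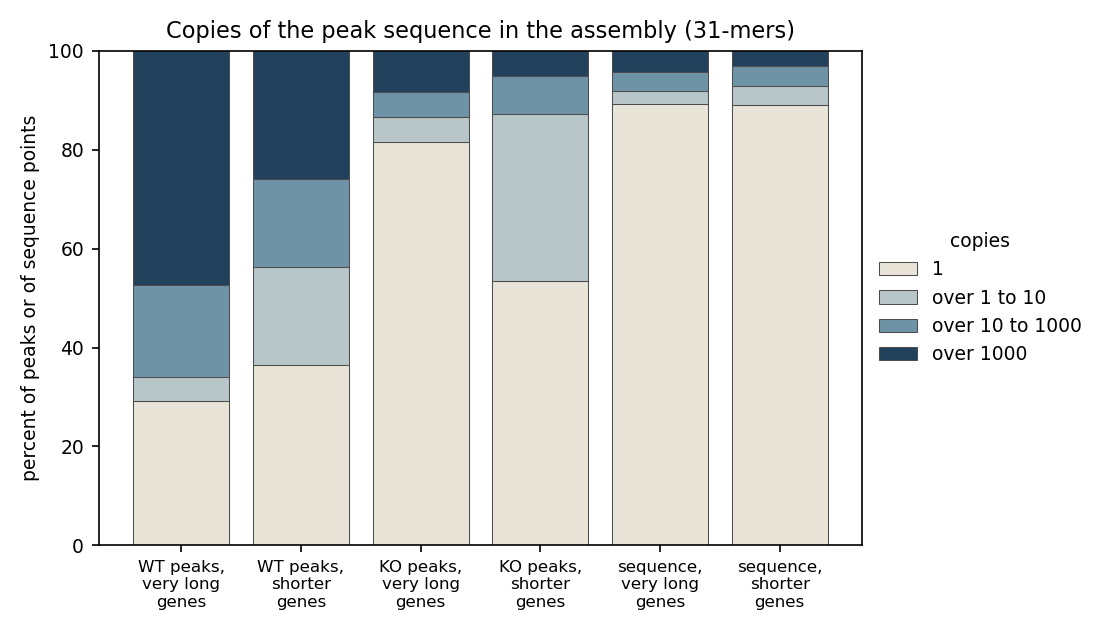
Share of peaks or of intron sequence points in percent (y axis) by class of copy number in the assembly (shades), for WT and KO peaks in introns of very long and of shorter genes and for sequence sampled at 1 point per kb (x axis). Over 1000 copies account for 47.4% of WT and 8.24% of KO peaks in very long genes and for 4.34% of the sequence points there.

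The ratio of KO to WT counts differed by copy number. For over 1000 copies the KO count was 3.48% of the WT count (2.28 to 5.30), as in shorter introns with 3.61% (2.41 to 5.42). For single-copy members it was 56.0% (47.5 to 66.1), against 26.9% (23.4 to 30.96) in shorter introns and 34.4% (32.4 to 36.5) outside genes. Single-copy WT members were less dense than in shorter introns, by a ratio of 0.843 (0.749 to 0.949), and single-copy KO members were denser, by 1.75 (1.46 to 2.104). Most single-copy members were weak, and 232 of 389 in WT and 152 of 218 in KO had the lowest pileup in the lists, 9 fragments. At that pileup the KO count was 65.5% of the WT count (53.4 to 80.4), and above it 42.0% (31.6 to 56.0), where shorter introns gave 29.6% and 24.4%. At pileups of at least 15 it was 10 against 12, a ratio too uncertain to place (83.3%, 36.8 to 189).

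**Figure D3:**
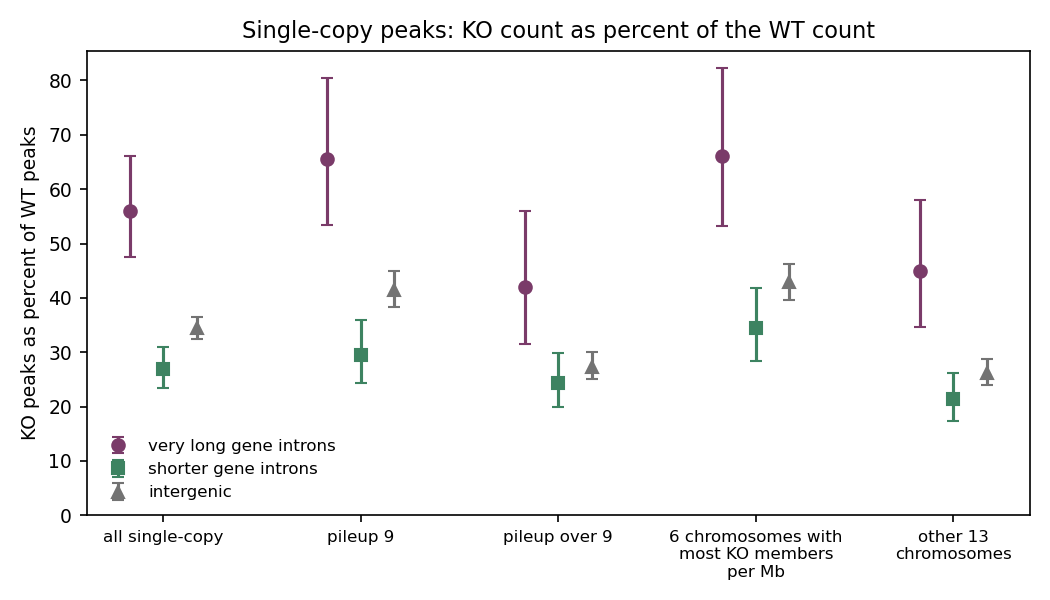
KO peaks as percent of WT peaks among single-copy peaks (y axis), in introns of very long genes (purple), introns of shorter genes (green) and outside genes (grey), for all such peaks and for subsets by pileup and by chromosome (x axis), with points for ratios and bars for 95% intervals derived by the Wilson method. Very long genes give 56.0% over all and 44.9% on the 13 chromosomes with fewer KO members per Mb, above shorter genes with 26.9% and 21.3%.

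The copies of the 31-mers printed above lay throughout these genes, and few carried a peak. A copy was taken as covered, or as carrying a member, where a member shared at least 1 base with it. Reads that fit several copies had been put at 1 of them by chance, so which copy carried a peak is uncertain. The shares below describe peaks as placed, and their intervals do not cover that uncertainty. The first had 12185 copies in the assembly and 993 in eligible introns, spread over 335 of the 503 genes. A WT member covered 110 of the 993, 11.1% (9.27 to 13.2), and a KO member 1. The second had 1115 intron copies, of which WT members covered 91, 8.16% (6.69 to 9.92), and the third 914, of which they covered 47, 5.14% (3.89 to 6.77). KO members covered 1 and 0 of these. The 3 were picked for being frequent among WT members, so an excess of WT over KO members on their copies was built in. They were not particular to members, since 1096, 859 and 638 of all 23190 WT peaks held them, beside 82, 72 and 40 of the 1335 WT members. All 3 ran against the host gene more often than with it as printed, with 621, 700 and 572 copies antisense and 372, 415 and 342 sense. The share of copies with a WT member was higher antisense than sense for all 3, with overlapping intervals. For the first, 11.3% of antisense copies (9.02 to 14.0) and 10.8% of sense copies (7.996 to 14.3) carried a WT member. For the second these were 8.71% (6.84 to 11.04) and 7.23% (5.11 to 10.1), and for the third 6.29% (4.58 to 8.59) and 3.22% (1.81 to 5.67).

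Runs of alternating A and T were met near the centre of some KO members and of no WT member. The 76 bp searched were as wide as the median KO member. The median WT member had 115 bp, so the ends of many WT members were not searched. The 12 letters ATATATATATAT, which read the same on both strands, or the same run begun with T, occurred within 76 bp around the centre of 10 KO members, 3.75% (2.05 to 6.76), and of 0 WT members, which allows up to 3 of 1335. Windows of 76 bp at 1 per kb of eligible intron held it in 0.288% (0.268 to 0.309). These 10 members lay in 10 genes. None overlapped a WT peak, and only 12 of the other KO members did, 4.67%. The median pileup was 20 for members with the run and 9 for the other KO members. Of the 10 best-scoring KO members, 5 held the run. The Erbb4 peak printed above belongs here. In shorter introns 2.35% of KO peaks held the run (1.31 to 4.15), 1 of 2562 WT peaks did, and 0.188% of windows did. The 12 letters ACACACACACAC, in either phase and on either strand, occurred around 1 WT member and 3 KO members, 0.0749% and 1.12%, where 1.48% of intron windows held them. A GC content under 20% in the same window was found in 14 KO members, 5.24% (3.15 to 8.61), in 6 WT members, 0.449% (0.206 to 0.977), and in 1.297% of the windows.

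Members of both lists were weak and narrow. The median pileup was 9 fragments in each, with highest values of 140 in WT and 130 in KO, and 51.5% of WT and 64.4% of KO members had exactly 9. WT members were 70 to 1980 bp wide with a median of 115, against 136 over the whole WT list, and KO members 65 to 737 bp with a median of 76, against 85. A background over 3 fragments was found for 0.899% of WT and 5.62% of KO members, where the whole lists had 4.04% and 17.3%. WT members covered 217.4 kb and KO members 24.8 kb of intron, and 2.09 kb were common to both, which is 0.963% of the WT length and 8.44% of the KO length.

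At least 1 WT member was found in 356 of the 503 genes (70.8%) and at least 1 KO member in 140 (27.8%). Both were found in 124 genes (24.7%), only WT members in 232, only KO members in 16, and none in 131. WT members numbered 10 or more in 25 genes, 5 to 9 in 77, 2 to 4 in 156 and 1 in 98. KO members numbered 5 to 9 in 9 genes, 2 to 4 in 51 and 1 in 80. Across genes the rank correlation of counts with length was 0.36 in WT and 0.27 in KO, and that of WT with KO density 0.26, as descriptions over 503 genes that share the same 2 libraries.

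The genes with most WT members were of several kinds. Kcnq1, a voltage-gated potassium channel gene in an imprinted cluster, had 21 WT members and 0 KO members. Rims2, whose product acts at the release site of synaptic vesicles, had 16 and 7. Ctnna3, an alpha-catenin of cell junctions, had 16 and 4. Hpse2, a relative of heparanase, had 15 and 5, and Galntl6, of the family that starts O-linked glycans, 15 and 9. Lrp1b, a large lipoprotein receptor, had 15 and 3, Dock3, an activator of the GTPase Rac, 14 and 1, Sgcz, a sarcoglycan, 14 and 7, Galnt13, another O-glycan transferase, 13 and 0, and Fgf14, an intracellular FGF that binds sodium channels, 13 and 2. KO members were thus missing from 2 of these 10 genes and reached 9 in Galntl6. For a gene with 0, the count allows up to 3 members, which is 9.56 per Mb in Kcnq1 and 4.50 per Mb in Galnt13.

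**Figure D4:**
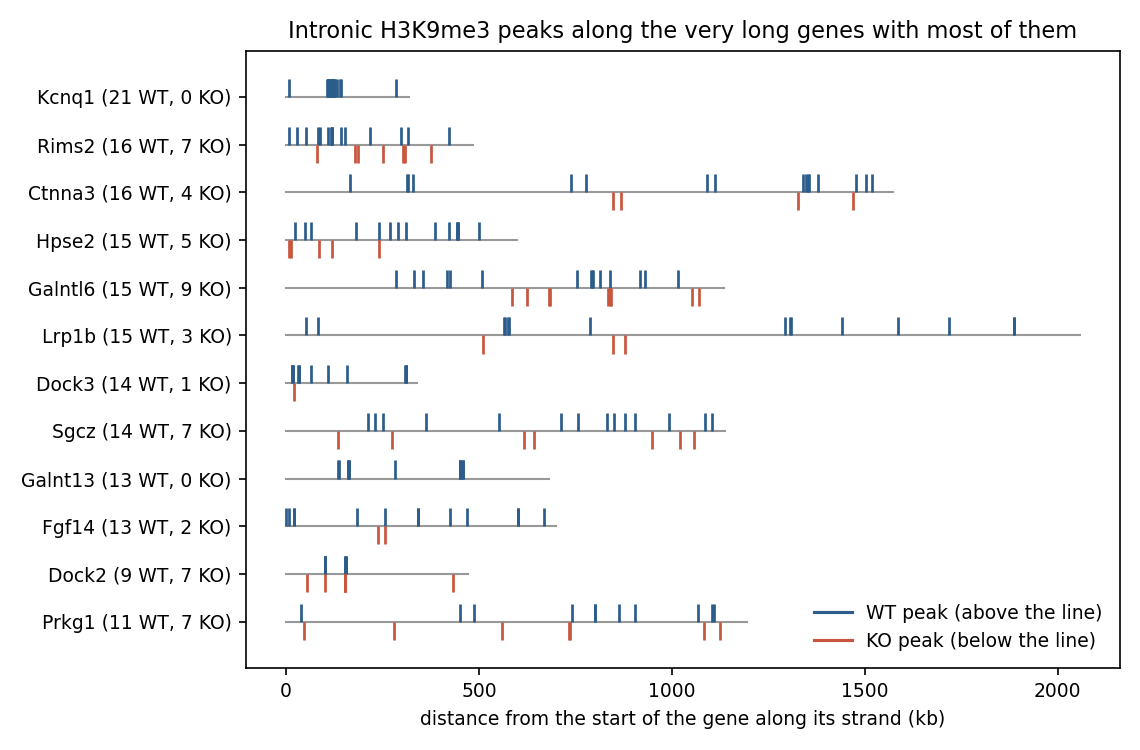
Position of each WT member (blue, above the line) and KO member (red, below the line) in kb from the start of the gene along its strand (x axis), for the 10 genes with most WT members and for Dock2 and Prkg1 (y axis, with counts). The 19 grouped WT peaks of Kcnq1 fall in 35.8 kb, and Galntl6 has 9 KO members, the most of any gene.

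Kcnq1 was the densest gene among those with at least 5 WT members. Its 21 WT members were 66.9 per Mb (41.4 to 102), and 19 of them lay within 35.8 kb at chr7:150400003-150435790, with no KO peak there. These 19 had pileups from 9 to 13 with a median of 10, widths from 90 to 1011 bp, and fold values over background from 4.32 to 6.05. Of the 19, 17 were single-copy, and none had over 1000 copies. The group was therefore many weak peaks side by side in sequence that reads fit once. Dock3 came next with 47.3 per Mb (25.8 to 79.3), then Rims2 with 34.0 (19.4 to 55.2), Itgbl1, an integrin-like gene, with 26.2 (11.3 to 51.7) and 8 WT and 0 KO members, and Hpse2 with 25.3 (14.2 to 41.8). The intervals of these 4 overlapped one another and that of Kcnq1.

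Genes rich in WT members differed in the sequence behind them. All 13 WT members of Galnt13 had at least 12 copies, 11 of them over 1000, and 6 of the 13 lay within 8.87 kb. In Lrp1b 10 of 15 had over 1000 copies. In Rims2 12 of 16 were single-copy and none had over 1000 copies, and the widest member of all, 1980 bp, was there. In Hpse2 9 of 15 were single-copy and 3 had over 1000 copies, the printed peak with its pileup of 21 and fold of 10.2 among them.

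KO members were most numerous in Galntl6 with 9, then in Dock2, Rims2, Sgcz, Pcdh15 and Prkg1, a cGMP-dependent protein kinase gene, with 7 each. All 9 in Galntl6 and all 7 in Sgcz were single-copy, with pileups of at most 10 and 11. Of the 9 in Galntl6, 1 overlapped a WT peak, and none in Rims2, Sgcz or Prkg1 did, where 4.49% of all KO members did. The 7 in Prkg1 all had a pileup of 9. The KO peaks of Galntl6, Rims2, Sgcz and Prkg1 were therefore near the lower limit of the caller.

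Dock2, an activator of Rac known from lymphocytes, differed from them. Its 9 WT members had pileups from 14 to 64 with a median of 34, on local backgrounds from 1.97 to 19.1, and its 7 KO members had pileups from 9 to 69 with a median of 24. Peak sequence there was a tandem array. In all 9 WT members a base matched the base 24 or 48 positions further on more often than at any other distance searched. The matching share was 67.9% to 80.0%. The same held for 5 of 7 KO members, with 67.3% to 92.9%. Distances ran from 2 to at most 60, and to less in narrow peaks. The printed Dock2 sequence matched itself in 70.6% of bases at 24 positions. Its 31-mers were mostly single-copy all the same, since the units differ from each other. Dock2 held 3 of the 12 overlapping pairs.

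Of the 5 longest genes, Lrp1b alone was among the 10 with most WT members. Gm20388, annotated with 4435 kb, had 10 WT members and 0 KO members, and Fgfr2, a growth factor receptor annotated here with 3009 kb, had 9 and 1. Ptprd, a receptor tyrosine phosphatase, had 10 and 0, and Cntnap2, a neuronal adhesion gene, had 9 and 0. Lrp1b was the fifth. WT densities of these 5 ran from 2.67 to 7.44 per Mb around the 4.91 of all. Over 1000 copies were found for 9 of 10 WT members in Ptprd and 8 of 9 in Cntnap2, and none of either was single-copy. Of the 48 genes of 1000 kb or more, 2 had no WT member and 16 no KO member.

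Gene groups were compared by count, beside the 70.8% of all 503 genes with a WT member and the 27.8% with a KO member. These shares and densities were not matched for gene length or for chromosome. The median length was 708 kb for synaptic and neuronal adhesion, 857 kb for cadherins and catenins and 608 kb for scaffolds and lipoprotein receptors, against 439 kb for all. Longer genes offer more sequence for a member, and KO density was also higher in genes of 1000 kb or more. The parts of length and of chromosome in the group values were not tested. Of 42 genes of synaptic and neuronal adhesion, 33 had a WT member (78.6%) and 16 a KO member (38.1%), at 3.59 (2.96 to 4.32) and 0.986 per Mb. All 503 genes gave 4.92 and 0.981, counting a member in 2 genes for each, so the WT interval of this group lay below the value of all genes. Lrrc4c, a ligand of netrin-G, had 13 WT and 4 KO members and Cntn5, a contactin, 11 and 4, while Dscam had none. Of 13 glutamate receptor genes, 10 had a WT (76.9%) and 5 a KO member (38.5%), at 5.78 (4.22 to 7.73) and 1.67 (0.889 to 2.85) per Mb. Grik2, a kainate receptor gene, had 3 WT and 6 KO members. Of 13 cadherin and catenin genes, 8 had a WT (61.5%) and 8 a KO member (61.5%), at 5.76 (4.39 to 7.43) and 1.95 (1.19 to 3.02) per Mb, and the KO interval lay above the 0.981 of all genes. Ctnna3, and Pcdh15, a protocadherin of hair cells, with 11 and 7, gave 11 of its 20 KO members. Both genes lie on chromosome 10, where KO members numbered 2.29 per Mb over all very long genes.

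Of 21 scaffold and lipoprotein-receptor genes, 15 had a WT (71.4%) and 11 a KO member (52.4%). Their densities were 5.31 (4.30 to 6.49) and 1.66 (1.12 to 2.37) per Mb. Of the 30 KO members, 7 were in Sgcz on chromosome 8, where KO members numbered 2.27 per Mb. Of 33 genes of transcription and RNA-binding factors, 16 had a WT member (48.5%) and 7 a KO member (21.2%), at 2.40 (1.70 to 3.28) and 0.676 (0.337 to 1.21) per Mb, and the WT interval lay below the value of all genes. Rbfox1, a splicing regulator, Npas3 and Foxp1, both transcription factors, had none in either list, while Sox6 had 4 WT members, the best-scoring of all 1335 among them. Of 14 genes of extracellular matrix and proteoglycans, 12 had a WT (85.7%) and 4 a KO member (28.6%), at 5.65 and 0.513 per Mb, with 13 WT and 0 KO members in Gpc5, a glypican. Ion channel genes gave 5.31 and 1.03 per Mb over 27 genes, kinase and phosphodiesterase genes 3.74 and 1.14 over 18, receptor tyrosine phosphatases 4.86 and 0.168 over 6, and genes at common fragile sites 4.84 and 0.888 over 19. These groups share some genes, and the genes given as examples here were picked after their values were seen.

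Within genes, WT members were rarer near exons than the sequence open to them. The nearest exon was within 1 kb for 2.55% of WT members (1.83 to 3.54) and 5.24% of KO members (3.15 to 8.61), and 7.71% of eligible bases were that close. From 1 to 5 kb the shares were 11.7% (10.1 to 13.5), 17.2% (13.2 to 22.2) and 18.8%. The KO intervals for both distances held the share of the sequence. Introns of at most 20 kb held 10.0% of WT (8.54 to 11.8) and 10.1% of KO members (7.04 to 14.3), and 15.1% of eligible bases. Introns over 100 kb held 47.9% of WT members (45.3 to 50.6) and 54.7% of KO members (48.7 to 60.5) for 47.2% of bases. The first intron held 18.3%, 16.9% and 16.2%. The gene body up to its midpoint held 53.3% of WT members (50.6 to 55.9), 52.8% of KO members (46.8 to 58.7) and 50.5% of bases.

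WT members were more often grouped than KO members. With neighbours taken as members of 1 gene at most 10 kb apart, 59.8% of WT and 91.0% of KO members had none. The WT list had 46 groups of at least 3, with 175 members, led by the 19 of Kcnq1 and followed by 6 in Galnt13, 6 in Cacna1c, a calcium channel gene, and 5 each in Dock2 and Rims2. The KO list had 3 such groups, 4 members in Dock2, 3 in Anks1b and 3 in Galntl6. The KO list also held fewer peaks in all, and the part of that in this difference was not tested.

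Density differed strongly between chromosomes, and the rest of each list moved along. KO members ranged from 0.152 per Mb on chromosome 3 to 3.57 on chromosome 19. They were 2.29 per Mb on chromosome 10, 2.27 on chromosome 8, 2.17 on chromosome 11, 1.55 on chromosome 15 and 1.36 on chromosome 17. These 6 chromosomes held 152 of the 267 KO members, 56.9%, and 33.3% of WT members, in 26.2% of the eligible sequence. In the rest of the same chromosomes the KO list had 3.50 peaks per Mb on chromosome 19, 5.46 on chromosome 8 and 0.663 on chromosome 3. Over the 19 chromosomes the rank correlation of density in very long genes with density elsewhere was 0.85 in KO and 0.58 in WT, as a description of 1 library each. WT members ranged from 2.48 per Mb on chromosome 12 to 8.14 on chromosome 15. Among single-copy members, the KO count was 66.2% of the WT count (53.3 to 82.2) on these 6 chromosomes and 44.9% (34.7 to 58.1) on the other 13, where shorter introns gave 34.4% (28.4 to 41.8) and 21.3% (17.4 to 26.1). Very long genes gave the higher share in both sets of chromosomes. The 6 were picked by a KO member density over 1.2 per Mb, so the split itself favoured a higher share of KO members on them than on the other 13. What sets the chromosomes apart was not tested.

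**Figure D5:**
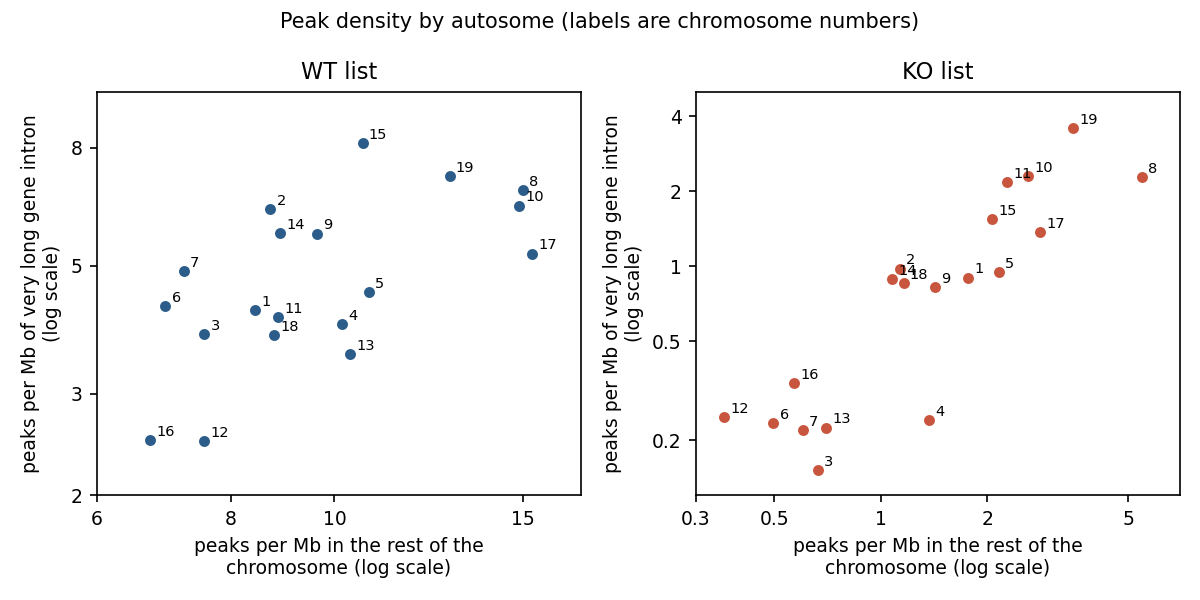
Peaks per Mb of eligible intron in very long genes (y axis, log scale) against peaks per Mb in the rest of the same chromosome (x axis, log scale), with 1 point for each of the 19 autosomes labelled by number, for the WT list (left) and the KO list (right). KO density spans 0.152 to 3.57 per Mb in very long genes and rises with density elsewhere.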

How the data were processed

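H3K9me3 ChIP-seq peak lists of WT and KO Setdb1 cKO iMEFs were analysed, 1 library each. The forebrain and input libraries were not used here. The authors prepared chromatin with micrococcal nuclease, aligned the reads with Bowtie2 2.2.3 (mm9), put a read with several sites at 1 of them by chance, and removed duplicates. The submitters' processing notes name MACS2 2.1.0.20140616. Caller options are not given in the sources used here. The deposited pileup is a fragment coverage at the summit. Fold enrichment, also deposited, is a ratio of pileup to local background with 1 added to both, so the background equals (pileup + 1) / fold − 1. The deposited significance values are −log10 of a p-value and of a q-value. Whether starts count from 0 or 1 is not stated, which leaves 1 bp of uncertainty.

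Members were found with GENCODE M1 on NCBIM37, which is mm9. Copy number is the median count of a peak's 31-mers on both strands of the assembly. Repeat annotation was not used here. Shares carry Wilson intervals, densities exact Poisson intervals, and ratios of counts intervals from the Wilson interval of 1 count among both. A count of 0 allows up to 3. No test was run, because each group had 1 library. The peak lists give no read depth. Genes named are the 10 with most WT members, the 5 with most KO members (ties by density per Mb), the 5 densest with at least 5 WT members, the 5 longest, 2 on each side of the length limit, hosts of the 5 best-scoring peaks of each kind, and examples from gene groups. The members, gene groups and rules were chosen with earlier results of these data known. The interval code was tested on simulated data. Alternatives covered peak strength, list length, merging, copy number, gene length, overlap, chromosome 8 and single genes. Scripts used numba 0.67.0 for copy numbers, matplotlib 3.10.9 for plots, and scipy 1.17.1 with pandas 2.3.3, numpy 2.4.6 and Python 3.11.15 otherwise. Single items among the named peaks and genes are not reported here.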

Additional observations from a re-analysis of the deposited data

How the results depend on the processing

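No paired analysis was possible because WT and KO had 1 library apiece. Of 74 recomputed values, 49 stayed near the reported value, 24 moved and 1 reversed. Scores at or above the WT median left 594 WT and 79 KO members, a KO count of 13.3% of WT, 8.86% of KO members overlapping a WT peak, and density ratios to shorter introns of 0.965 in WT and 0.814 in KO. Pileups of at least 15 left 52 WT and 18 KO members, a KO count of 34.6%, overlaps of 9.62% of WT and 27.8% of KO members, and density ratios of 0.584 and 0.343, which put the KO ratio below 1. Cutting the WT list to its best-scoring peaks, as many as in KO, left 169 WT members. The KO count was then 158% and reversed from fewer to more than WT, which follows from cutting the WT list only. This cut also gave 4.14% of WT members overlapping and a WT density ratio of 0.978. Merging within 1 kb gave a WT density ratio of 1.18. Single-copy peaks alone gave 389 WT members, a KO count of 56.0%, 2.29% of KO members overlapping, and density ratios of 0.843 and 1.75. Genes of at least 500000 bp held 760 WT and 172 KO members, being fewer genes. The cause of the other moves was not tested. Leaving out chromosome 8, Dock2, Kcnq1 or Gm20388 moved none of the 7 values by that measure, although without Gm20388 the interval of the KO density ratio (1.01 to 1.36) no longer held 1, and the last 3 of these choices were made after seeing the data. The overlap rests on 12 pairs, and most members lie at the lowest pileup called, so weaker marks under that limit were not detectable here.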
